A study of Mus musculus with 14 samples.

Results

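The 39 Hox genes of the 4 mammalian clusters were followed in the epithelium of the developing mouse bladder and urethra. They were the rows of the deposited count tables whose symbol was Hox, a cluster letter a to d and a paralog number, and made up 39 of the 55228 genes listed. The samples were bladder epithelium at E18.5 (3 libraries; E counts embryonic days), urethral epithelium at E18.5 (3), bladder epithelium at E14.5 (4) and urethral epithelium at E14.5 (4). Every library came from untreated wild-type CD-1 embryos, an outbred stock, and pooled the females of a litter. The bladder and the pelvic part of the urethra were digested with trypsin, and forceps then parted the epithelium from the mesenchyme. The study asked which genes mark each epithelial compartment. Each tissue was compared with the other at each stage, and each stage with the other in each tissue.

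Hox genes encode homeodomain transcription factors that give cells their position along the body axis. They lie in 4 clusters and fall into paralog groups, and genes near the 3′ end of a cluster (the low numbers) are switched on earlier and further forward than those near the 5′ end (the high numbers), an order called collinearity. The group 13 genes Hoxa13, Hoxb13 and Hoxd13 act at the hind end of the body, and Hoxa13 and Hoxd13 are needed in mice for the genital tubercle and the outlets of the gut and urinary tract.

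The genes lay on GRCm38 as 11 HoxA genes on chromosome 6, 10 HoxB genes on chr11:96194316-96368256, 9 HoxC genes on chr15:102921103-103036852 and 9 HoxD genes on chr2:74668310-74765142. The HoxB, HoxC and HoxD genes spanned 173.9 kb, 115.8 kb and 96.8 kb. Library totals ran from 21101269 to 36810672 counts, and 21966 to 24258 genes were detected in each. Of the urothelial list, 7 of 10 genes were higher and 1 was lower in bladder at E18.5, and 9 were higher at E14.5. Collagens and other mesenchymal genes were present in every library. The 15 genes of the mesenchyme list summed to 19590 to 29880 CPM (counts scaled to a common library size) in bladder E18.5, 4415 to 5351 CPM in urethra E18.5, 910.7 to 4317 CPM in bladder E14.5 and 2147 to 6129 CPM in urethra E14.5. None of the 15 was at 0 in any library. In these bulk samples fewer cells of a type and less RNA per cell cannot be told apart.

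Among the Hox genes, the widest tissue differences described below were those of HoxD members, and the 250 bases before the RefSeq start of 4 HoxD genes are shown here (GRCm38.p6, plus strand) so that the promoters of Hoxd13, Hoxd12 and Hoxd1, lower in bladder at both stages, can be set beside that of Hoxd8. Hoxd13 is at chr2:74667975-74668224, Hoxd12 at chr2:74674763-74675012, Hoxd8 at chr2:74704365-74704614 and Hoxd1 at chr2:74762730-74762979. Capitals mark 3 motifs searched on either strand, the TATA box (TATAAA), the CCAAT box and the E-box of the letters CACGTG. Where matches overlap, only the first is in capitals. In Hoxd13 the marked TTTATA is the motif on the minus strand, and a TATAAA on the plus strand overlaps it and ends in small letters.
Hoxd13: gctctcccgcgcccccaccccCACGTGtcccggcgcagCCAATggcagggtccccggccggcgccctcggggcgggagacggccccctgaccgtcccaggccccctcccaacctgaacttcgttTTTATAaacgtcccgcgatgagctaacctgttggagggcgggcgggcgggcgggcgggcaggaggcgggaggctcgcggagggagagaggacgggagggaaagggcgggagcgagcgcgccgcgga
Hoxd12: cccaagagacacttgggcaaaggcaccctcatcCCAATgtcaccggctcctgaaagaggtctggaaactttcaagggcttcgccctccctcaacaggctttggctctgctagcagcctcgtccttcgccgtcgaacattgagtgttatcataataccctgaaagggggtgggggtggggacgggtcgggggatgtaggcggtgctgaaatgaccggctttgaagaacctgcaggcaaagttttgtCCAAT
Hoxd8: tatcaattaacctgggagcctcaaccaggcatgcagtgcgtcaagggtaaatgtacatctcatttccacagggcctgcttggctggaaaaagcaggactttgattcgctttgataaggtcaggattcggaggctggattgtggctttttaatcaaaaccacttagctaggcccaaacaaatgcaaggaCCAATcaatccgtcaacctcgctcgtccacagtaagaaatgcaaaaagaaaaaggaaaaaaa
Hoxd1: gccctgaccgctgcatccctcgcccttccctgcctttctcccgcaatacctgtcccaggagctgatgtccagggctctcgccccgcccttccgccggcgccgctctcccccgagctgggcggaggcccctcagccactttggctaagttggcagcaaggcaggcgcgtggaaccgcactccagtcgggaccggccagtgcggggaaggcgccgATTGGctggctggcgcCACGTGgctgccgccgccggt
The 4 stretches held 74.4% (Hoxd13), 55.6% (Hoxd12), 44.4% (Hoxd8) and 71.6% (Hoxd1) G and C, against a median of 52.4% over all 32851 promoters of the table. The palindrome CACGTG lay in the Hoxd13 and Hoxd1 stretches and in neither of the other pair. It was found in 4 of the 10 HoxD promoters of the table (Hoxd1, Hoxd10, Hoxd11 and Hoxd13), in 4 of the 24 promoters listed for 22 of the 39 Hox genes, and in 6.0% of all promoters. CCAAT was found in 14 of the 24 Hox promoters and 33.8% of all, and TATAAA in 4 of the 24 and 12.4% of all. These letters were searched with the values in view, and a match is a description of the sequence only.

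Levels were first compared between genes as CPM per kilobase of exon. The posterior HoxA genes led in bladder and the group 13 genes in urethra. In bladder E18.5, Hoxa11 (32.1 ± 2.7 CPM per kb, SD, n = 3) and Hoxa10 (30.2 ± 1.7) stood highest and did not differ beyond their spread. Urethra E18.5 was led by Hoxd13 (46.0 ± 3.5) and Hoxa13 (41.6 ± 9.3), again within their spread of each other. Bladder E14.5 had Hoxa13 (28.4 ± 2.7, n = 4), Hoxa10 (26.8 ± 2.0) and Hoxb13 (24.2 ± 7.4) close together. Urethra E14.5 had Hoxd13 (67.7 ± 13.6) and Hoxa13 (56.5 ± 7.2) above Hoxa10 (23.9 ± 3.9).

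Cluster HoxC was the lowest in every group. Its highest member, Hoxc10, averaged 2.22 CPM per kb in bladder E18.5, 1.32 in urethra E18.5, 1.08 in bladder E14.5 and 2.26 in urethra E14.5. Hoxc12 had 0, 2, 2 and 1 counts over those 4 groups in the same order, and Hoxc13 had 0, 2, 6 and 0 counts. Neither passed the filter on low counts in any test. Of the 39 genes, 35 passed at E14.5 (without Hoxc5, Hoxc8, Hoxc12 and Hoxc13), 35 at E18.5 (without Hoxb1, Hoxc5, Hoxc12 and Hoxc13) and 37 in the fits over all 14 libraries. The plot of levels shows the 4 clusters in gene order.

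**Figure D1:**
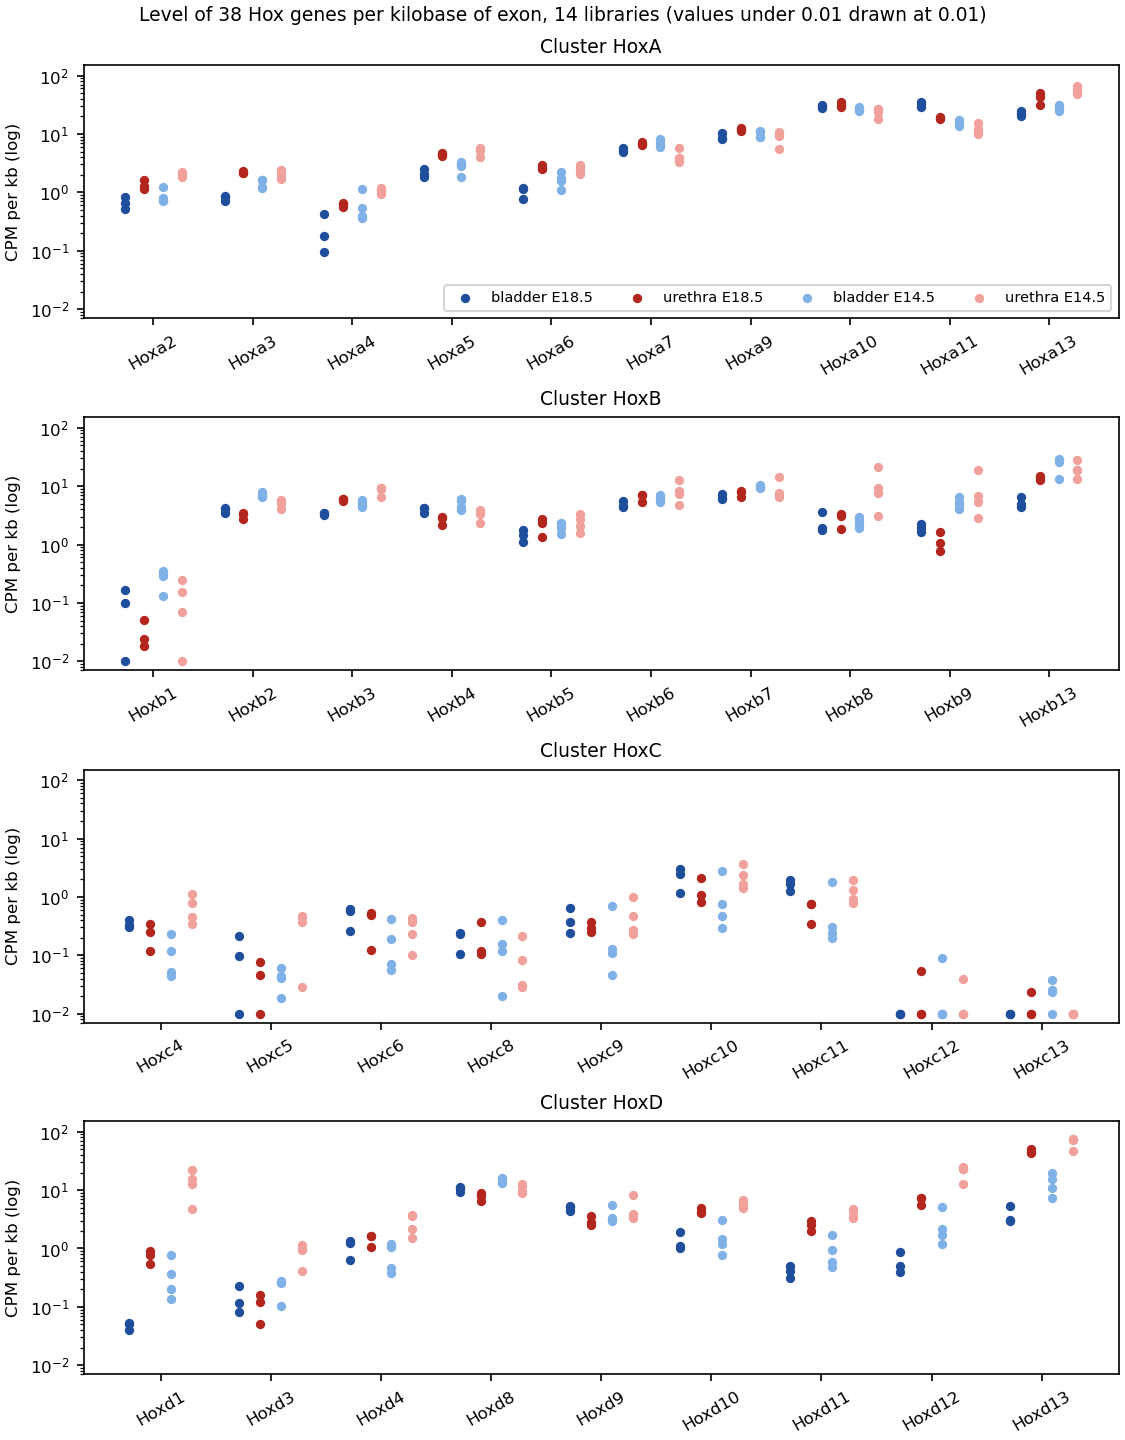
Level of 38 of the 39 Hox genes (CPM per kilobase of exon, log axis) in every library, by cluster and paralog number. Points are libraries, coloured by group, and the lowest values are drawn at the foot of the axis, as the title says. Hoxd13 and Hoxa13 lead in urethra, Hoxa10 and Hoxa11 lead in bladder E18.5, and HoxC lies low throughout.

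The 39 genes together summed to 166.3 ± 8.3 CPM per kb in bladder E18.5 (SD, n = 3), 244.3 ± 12.3 in urethra E18.5 (n = 3), 205.4 ± 10.98 in bladder E14.5 (n = 4) and 332.4 ± 47.2 in urethra E14.5 (n = 4). On this CPM scale the bladder and urethral ranges did not overlap at either stage, nor did the stages overlap in either tissue. HoxD made up 13.6% of this sum in bladder E18.5 (12.4 to 15.3), 29.8% in urethra E18.5 (29.1 to 30.2), 18.6% in bladder E14.5 (15.2 to 21.7) and 39.2% in urethra E14.5 (33.4 to 42.1). HoxA made up 62.8%, 50.1%, 47.6% and 36.9% in the same groups. Group 13 took 18.1 to 19.9% of the sum in bladder E18.5, and on average 41.5% in urethra E18.5, 31.9% in bladder E14.5 and 43.3% in urethra E14.5. Groups 10 to 12 took 41.1% in bladder E18.5, above their 27.2%, 24.0% and 21.4% in the other 3 groups. These shares do not depend on how libraries are scaled against each other. The sums do depend on it, and they were not recomputed under another scaling.

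Bladder was then compared with urethra gene by gene (edgeR's quasi-likelihood test, Benjamini-Hochberg adjusted over all genes, threshold 0.05). At E18.5, 3 Hox genes were higher and 14 lower in bladder, 48.6% of the 35 tested. Over all 17513 genes tested, 37.9% passed, with 19.3% higher and 18.6% lower in bladder. The groups did not overlap for 6 higher and 15 lower Hox genes, against 51.1% of all genes (27.6% higher and 23.4% lower). At E14.5 the counts were again 3 higher and 14 lower of 35, where 44% of all 16697 genes passed (23.1% higher and 20.9% lower). Here the groups did not overlap for 4 higher and 14 lower Hox genes, against 40.4% of all genes (22.9% higher and 17.6% lower). The share of Hox genes called was the same at both stages (48.6%), beside 44% of all genes at E14.5 and 37.9% at E18.5. Most of the calls were lower in bladder at both stages. The median log2 fold change of the tested Hox genes was -0.41 at E18.5 and -0.74 at E14.5, against -0.03 and -0.04 over all genes tested. Scaling the libraries on 7 pan-epithelial genes, of which 0 were higher and 3 lower in bladder at E18.5 and 5 higher and 0 lower at E14.5, moved the median of all genes by 0.36 at E18.5 and -0.99 at E14.5, and the splits were then 5 higher and 7 lower at E18.5, and 0 higher and 27 lower at E14.5.

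Most of the calls lay in HoxD and HoxA. At E18.5 the share called was 66.7% of HoxD, 72.7% of HoxA, 22.2% of HoxB and 16.7% of HoxC, beside 37.9% of all genes. At E14.5 it was 88.9%, 45.5%, 30% and 20% in the same order, beside 44% of all genes. HoxA at E14.5 was thus near the share of all genes. HoxD had 1 gene higher and 5 lower of 9 at E18.5, and 1 higher and 7 lower of 9 at E14.5. HoxA had 1 higher and 7 lower of 11 at E18.5, and 1 higher and 4 lower of 11 at E14.5. HoxB had 0 higher and 2 lower of 9 at E18.5, and 1 higher and 2 lower of 10 at E14.5. HoxC had 1 higher of 6 at E18.5 and 1 lower of 5 at E14.5.

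**Figure D2:**
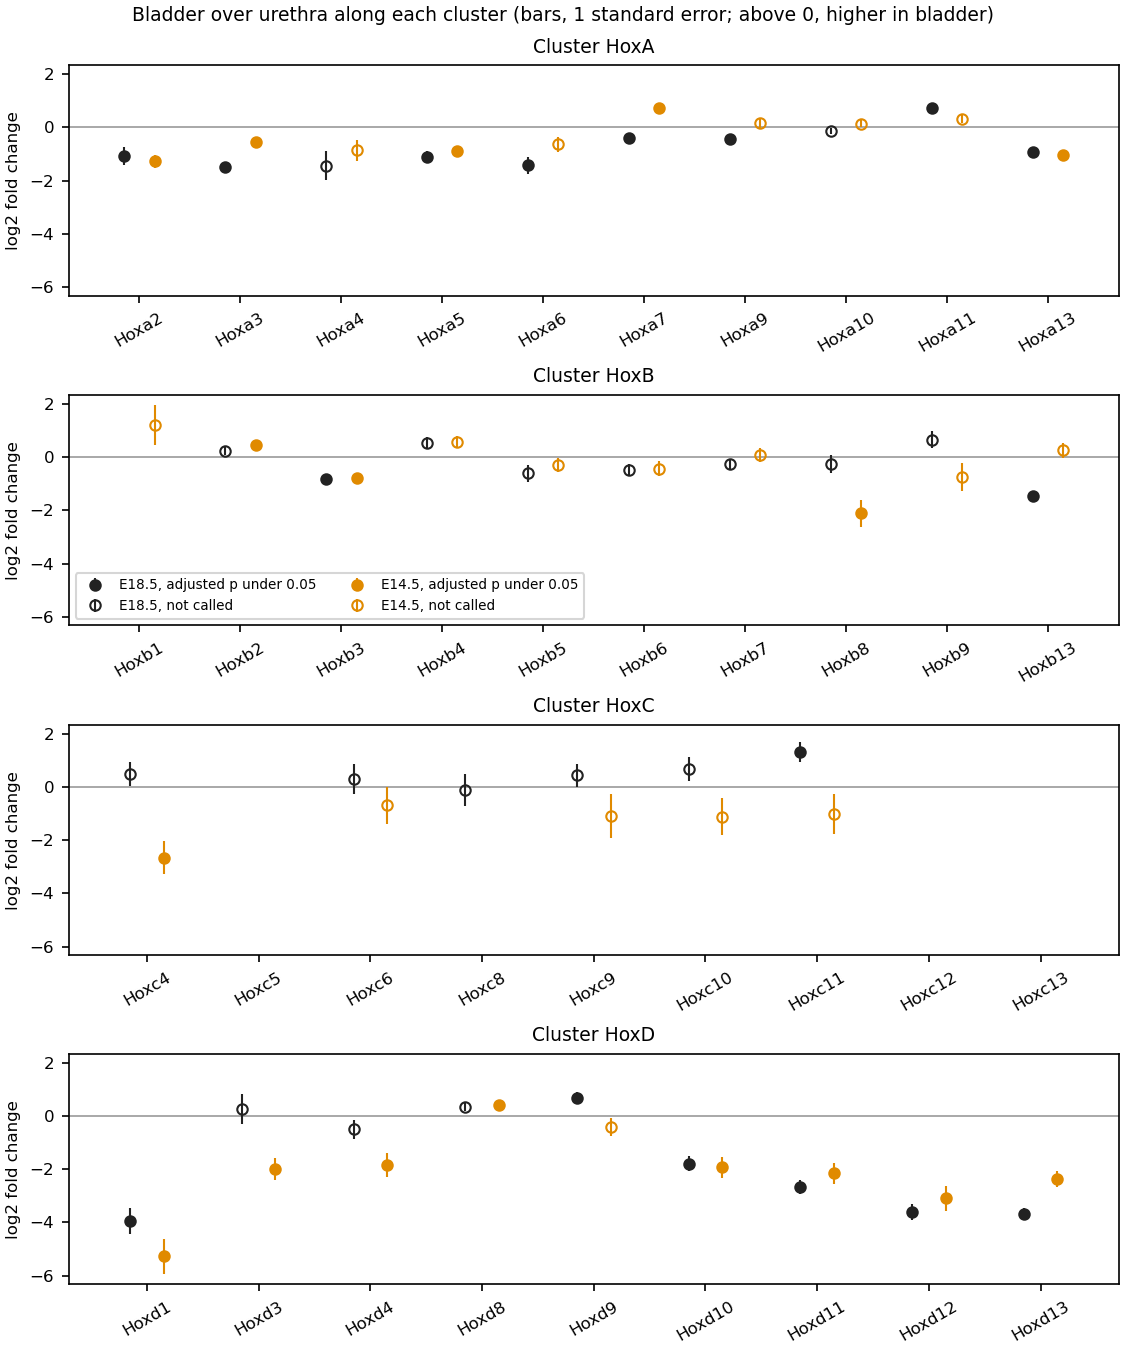
Log2 fold change of bladder over urethra for tested Hox genes, with 1 standard error, at E18.5 (black) and E14.5 (orange). Filled points passed the threshold, and a gene shown without a point was not tested at that stage. Hoxd10 to Hoxd13 and Hoxd1 lie below 0 at both stages, and Hoxa10 lies near 0 at both.

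Hoxd13, at chr2:74668310-74671599, is the most 5′ gene of HoxD. Its levels were 13.2, 7.24 and 7.58 CPM in bladder E18.5, 123, 106 and 113 CPM in urethra E18.5, 18.2, 26.8, 49.4 and 38.5 CPM in bladder E14.5, and 118, 185, 188 and 181 CPM in urethra E14.5. Every bladder library lay below every urethral one. It was 12.8-fold lower in bladder at E18.5 (log2 fold change -3.67, SE 0.23, adjusted p = 2.57e-05) and 5.17-fold lower at E14.5 (-2.37, SE 0.31, adjusted p = 0.000886).

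Hoxd12, its neighbour, followed the same order. It had 2.19, 1.26 and 0.984 CPM in bladder E18.5, 18.9, 14.3 and 18.3 CPM in urethra E18.5, 4.25, 3.05, 12.8 and 5.38 CPM in bladder E14.5, and 31.8, 58.7, 62.2 and 58.0 CPM in urethra E14.5. The tissues did not overlap at either stage, and replicate 3 was the highest bladder library at E14.5. Bladder was 12.1-fold lower at E18.5 (log2 fold change -3.60, SE 0.31, adjusted p = 8.97e-05) and 8.53-fold lower at E14.5 (-3.09, SE 0.46, adjusted p = 0.00141).

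Hoxd11 and Hoxd10, which act with their paralogs in the kidney and limb, were lower in bladder too. Hoxd11 had 2.10, 1.75 and 1.33 CPM in bladder E18.5, 10.6, 12.6 and 8.42 CPM in urethra E18.5, 2.48, 2.02, 7.23 and 3.97 CPM in bladder E14.5, and 13.9, 15.1, 20.1 and 18.7 CPM in urethra E14.5. It was 6.34-fold lower in bladder at E18.5 (adjusted p = 0.000175) and 4.43-fold lower at E14.5 (adjusted p = 0.00338). Hoxd10 was lower by less, with 3.43, 2.02 and 1.82 CPM in bladder E18.5, 7.39, 8.94 and 7.72 CPM in urethra E18.5, 2.14, 1.42, 5.48 and 2.66 CPM in bladder E14.5, and 10.6, 8.82, 11.7 and 12.2 CPM in urethra E14.5. Its difference was 3.45-fold at E18.5 (adjusted p = 0.0018) and 3.79-fold at E14.5 (adjusted p = 0.00545). Neither gene's tissue ranges overlapped. The plot of 8 genes by library shows these values.

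**Figure D3:**
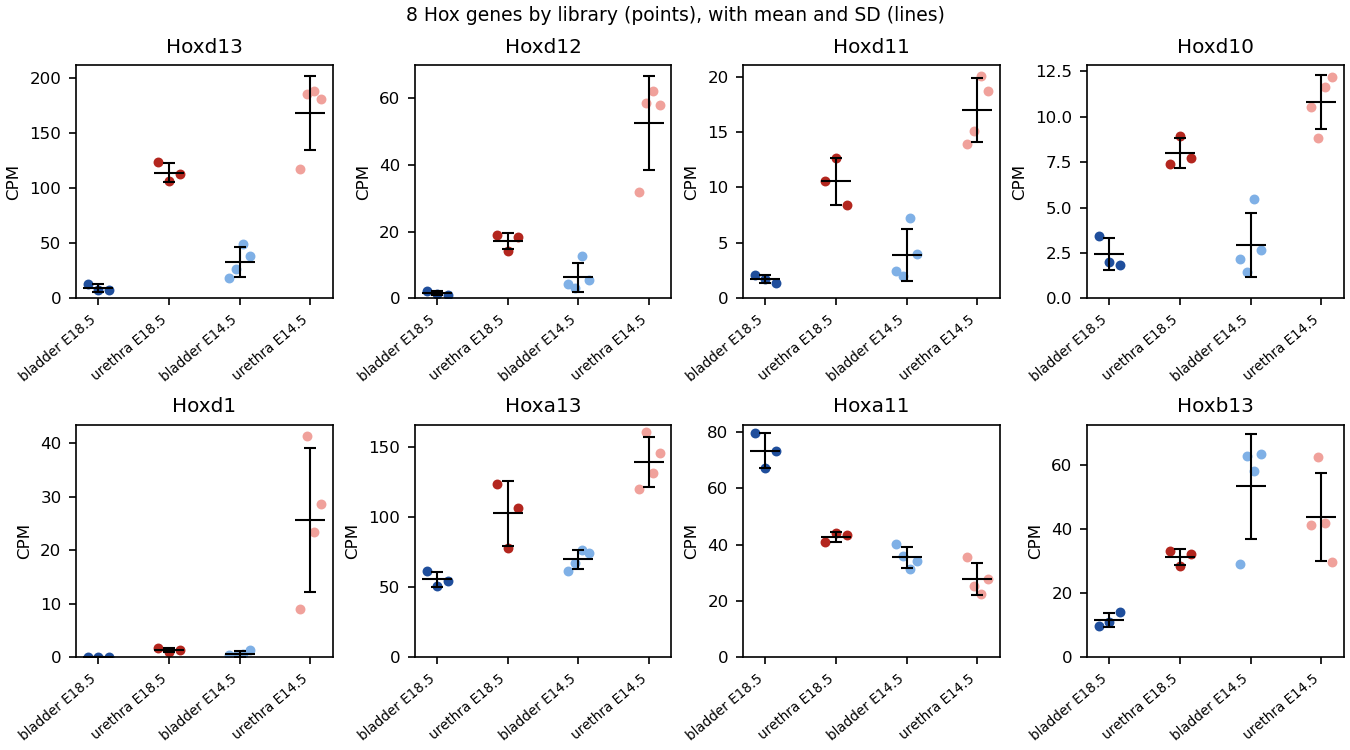
CPM of 8 Hox genes in every library (points), with the group mean and SD (lines), on linear axes from 0. The HoxD genes are lower in bladder at both stages, Hoxa11 is highest in bladder E18.5, and Hoxb13 separates the tissues at E18.5.

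At the 3′ end of HoxD, Hoxd1, Hoxd3 and Hoxd4 were lower in bladder at E14.5. Hoxd1, known in mice from pain-sensing neurons, had 0.0952, 0.0762 and 0.0984 CPM in bladder E18.5, 1.71, 1.00 and 1.45 CPM in urethra E18.5, 0.372, 0.256, 0.691 and 1.41 CPM in bladder E14.5, and 8.98, 41.5, 23.5 and 28.6 CPM in urethra E14.5. It was 15.4-fold lower in bladder at E18.5 (log2 fold change -3.94, SE 0.49, adjusted p = 0.000505) and 38.6-fold lower at E14.5 (-5.27, SE 0.66, adjusted p = 0.000755). At E18.5 this rests on 6 counts in 3 bladder libraries, and at E14.5 the log2 fold change was -5.93 without bladder replicate 4. Hoxd3, which patterns the neck vertebrae, was 3.96-fold lower in bladder at E14.5 (adjusted p = 0.00607), and had a log2 fold change of 0.26 at E18.5 (adjusted p = 0.757). Hoxd4 was 3.60-fold lower at E14.5 (adjusted p = 0.012), with -0.50 at E18.5 (adjusted p = 0.304). Of the exon bases of Hoxd3 and Hoxd4, 62.3% and 52.3% are shared on the same strand with each other or with another annotated gene, so the counting could move reads between them.

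Hoxd8 and Hoxd9, in the middle of the cluster, did not pass as lower in bladder at either stage. Hoxd8 had the highest mean level per length of HoxD in bladder E18.5 (10.3 CPM per kb) and bladder E14.5 (14.7 CPM per kb), with 30.6, 25.8 and 28.3 CPM in bladder E18.5, 21.8, 18.1 and 24.2 CPM in urethra E18.5, 44.7, 38.1, 36.0 and 42.6 CPM in bladder E14.5, and 26.98, 31.7, 35.4 and 24.2 CPM in urethra E14.5. It was 1.33-fold higher in bladder at E14.5 (adjusted p = 0.0348), a call lost on leaving out any of 6 of the 8 libraries, the replicates 1, 2 and 4 of each tissue (highest adjusted p 0.101) and turned to -0.56 by pan-epithelial scaling. Hoxd9 was 1.60-fold higher in bladder at E18.5 (adjusted p = 0.0358), which did not hold on leaving out replicate 1 or 3 of bladder or 1 or 2 of urethra (highest adjusted p 0.11). At E14.5 its log2 fold change was -0.41 (SE 0.35, adjusted p = 0.366). The ratio of Hoxd13 to Hoxd8 counts within a library, which needs no scaling, averaged 0.327 in bladder E18.5 (0.268 to 0.431), 5.40 in urethra E18.5 (4.67 to 5.86), 0.847 in bladder E14.5 (0.408 to 1.37) and 5.75 in urethra E14.5 (4.36 to 7.46).

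HoxA differed by less and at both ends. Hoxa13, at chr6:52257694-52260880, had 61.6, 50.9 and 54.6 CPM in bladder E18.5, 124, 78.3 and 107 CPM in urethra E18.5, 62.1, 67.2, 76.8 and 74.4 CPM in bladder E14.5, and 120, 161, 132 and 146 CPM in urethra E14.5. It was 1.92-fold lower in bladder at E18.5 (log2 fold change -0.94, SE 0.17, adjusted p = 0.00335) and 2.03-fold lower at E14.5 (-1.02, SE 0.11, adjusted p = 0.000525), with no overlap. Pan-epithelial scaling ended the E18.5 call (-0.54, adjusted p = 0.0599). Hoxa11, which patterns the uterus and kidney, went the other way at E18.5. Its levels were 79.7, 67.2 and 73.0 CPM in bladder E18.5, 40.8, 44.3 and 43.2 CPM in urethra E18.5, 40.3, 36.1, 31.5 and 34.0 CPM in bladder E14.5, and 35.6, 25.2, 22.6 and 27.8 CPM in urethra E14.5. Bladder was 1.65-fold higher at E18.5 (adjusted p = 0.00119), and at E14.5 the log2 fold change was 0.32 (adjusted p = 0.101), which passed without urethral replicate 1 (0.47, adjusted p = 0.0113) and was -0.58 under pan-epithelial scaling.

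Hoxa10, which patterns the uterus, did not pass between tissues at either stage, at 99.2, 92.6 and 104 CPM in bladder E18.5, 102, 114 and 96.1 CPM in urethra E18.5, 94.0, 92.4, 83.1 and 81.2 CPM in bladder E14.5, and 86.1, 79.1, 59.7 and 87.3 CPM in urethra E14.5. Its log2 fold change between tissues was -0.13 (SE 0.11, adjusted p = 0.378) at E18.5 and 0.14 (SE 0.12, adjusted p = 0.377) at E14.5, the second turned to -0.78 by pan-epithelial scaling (adjusted p = 0.00866). Hoxa11 lies opposite the antisense gene Hoxa11os over 35.0% of its exon bases. Hoxa11os was lower in bladder at both stages (1.59-fold at E18.5 with adjusted p = 0.00453, and 2.35-fold at E14.5 with adjusted p = 0.00528). As the strand setting of the counting is not given, reads of this pair could be mixed.

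At the 3′ end of HoxA, Hoxa3, a gene of the thymus and parathyroid, had 5.29, 4.30 and 4.97 CPM in bladder E18.5 and 13.1, 12.8 and 13.8 CPM in urethra E18.5. It was 2.83-fold lower in bladder at E18.5 (adjusted p = 0.000454). At E14.5 bladder ranged over 7.01 to 9.96 CPM, below the 10.3 to 14.6 CPM of urethra. The difference was 1.47-fold (adjusted p = 0.0363), and lost the call without bladder replicate 1 or 4 or urethral replicate 1, 2 or 4 (highest adjusted p 0.106). Hoxa5, a lung patterning gene, was 2.17-fold lower in bladder at E18.5 (3.47 to 4.76 CPM in bladder, 7.89 to 8.93 CPM in urethra, adjusted p = 0.00416) and 1.88-fold lower at E14.5 (adjusted p = 0.0111). Hoxa2, which patterns the hyoid arch, was 2.11-fold lower at E18.5 (adjusted p = 0.0346) and 2.43-fold lower at E14.5 (1.24 to 2.16 CPM in bladder, 3.31 to 3.96 CPM in urethra, adjusted p = 0.00373). The E18.5 call of Hoxa2 was lost without replicate 1 or 2 of either tissue (highest adjusted p 0.113).

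Hoxa6 was 2.70-fold lower in bladder at E18.5 (0.667 to 1.03 CPM in bladder, 2.15 to 2.53 CPM in urethra, adjusted p = 0.0089). Hoxa9, which acts in blood cell formation, was 1.36-fold lower there (46.5 to 57.0 CPM in bladder, 61.6 to 69.3 CPM in urethra, adjusted p = 0.0209), and did not pass on omitting bladder replicate 1 or 2 or urethral replicate 1 (highest adjusted p 0.092). Hoxa7 was 1.33-fold lower at E18.5 (adjusted p = 0.0494), lost on leaving out any of the 6 libraries (highest adjusted p 0.17), and 1.66-fold higher at E14.5 (17.3 to 23.8 CPM in bladder, 9.65 to 16.7 CPM in urethra, adjusted p = 0.014), where pan-epithelial scaling gave -0.16. At E18.5 that scaling also ended the calls of Hoxa2 (-0.73), Hoxa5 (-0.72), Hoxa6 (-1.07), Hoxa7 (-0.038) and Hoxa9 (-0.077), at adjusted p from 0.0549 to 0.911.

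In HoxB the group 13 gene stood apart at E18.5. Hoxb13, best known from the prostate and the tail, had 9.86, 10.9 and 14.3 CPM in bladder E18.5, 33.2, 28.6 and 32.1 CPM in urethra E18.5, 29.1, 62.7, 58.1 and 63.3 CPM in bladder E14.5, and 41.2, 62.4, 41.8 and 29.8 CPM in urethra E14.5. It was 2.78-fold lower in bladder at E18.5 (log2 fold change -1.47, SE 0.18, adjusted p = 0.000451), while the E14.5 ranges overlapped (0.25, SE 0.28, adjusted p = 0.493). Hoxb3 was lower in bladder at both stages, 1.79-fold at E18.5 (13.4 to 15.0 CPM in bladder, 23.3 to 25.8 CPM in urethra, adjusted p = 0.00188) and 1.73-fold at E14.5 (18.9 to 24.8 CPM in bladder, 27.7 to 39.4 CPM in urethra, adjusted p = 0.00331). Its E18.5 call was lost under pan-epithelial scaling (-0.46, adjusted p = 0.13). Over 52.9% of its exon bases it lies opposite Hoxb3os.

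Hoxb8, known in mice for its role in grooming behaviour, was 4.33-fold lower in bladder at E14.5, at 7.73, 5.89, 5.06 and 6.995 CPM in bladder against 8.14, 24.2, 56.1 and 20.1 CPM in urethra (adjusted p = 0.011). Without urethral replicate 3, the highest, the log2 fold change was -1.47 in place of -2.11 (adjusted p = 0.0157). Hoxb6, Hoxb7 and Hoxb9 were also highest in that library among the urethral E14.5 libraries. It stood apart in its markers too, with the highest sums of the neural list (8 genes, 210.7 CPM there and 114.5 to 147.3 CPM in the other 3), the mesenchyme list (6129 CPM, 2147 to 3573 in the others), the endothelial list (218.8 CPM, 32.09 to 117.5), the immune list (77.72 CPM, 36.13 to 66.64) and the duct list (414.4 CPM, 118 to 274). Its 7 pan-epithelial genes summed to 1657 CPM, the lowest of the 4 (1856 to 3662 in the others). The part of these in the Hox values was not tested. Hoxb2, a hindbrain gene, was 1.37-fold higher in bladder at E14.5 (adjusted p = 0.0243), which did not pass without replicate 2 of either tissue (highest adjusted p 0.0839) and turned to -0.49 by pan-epithelial scaling. Hoxb7, the highest HoxB gene per length in bladder E18.5 at 6.53 CPM per kb, had log2 fold changes of -0.27 at E18.5 (adjusted p = 0.271) and 0.080 at E14.5 (adjusted p = 0.819), the second turned to -0.97 by pan-epithelial scaling. Hoxb4, Hoxb5, Hoxb6 and Hoxb9 did not pass at either stage.

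HoxC values were small. Hoxc10, a gene of the hindlimb and lumbar spinal cord, had 4.76, 5.71 and 2.26 CPM in bladder E18.5, 1.54, 2.06 and 3.97 CPM in urethra E18.5, 1.43, 0.569, 5.34 and 0.908 CPM in bladder E14.5, and 2.73, 3.16, 6.95 and 4.45 CPM in urethra E14.5. Hoxc11 had 3.95, 3.31 and 2.56 CPM in bladder E18.5, 0.684, 1.53 and 1.54 CPM in urethra E18.5, 0.497, 0.626, 3.68 and 0.404 CPM in bladder E14.5, and 1.89, 1.60, 4.02 and 2.64 CPM in urethra E14.5. Replicate 3 was the highest bladder library at E14.5 for both. Hoxc11 was 2.48-fold higher in bladder at E18.5 (log2 fold change 1.31, SE 0.38, adjusted p = 0.0257), not passing without bladder replicate 1 or 2 or urethral replicate 1 (highest adjusted p 0.0744).

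Hoxc10 did not pass at E18.5 (log2 fold change 0.68, SE 0.45, adjusted p = 0.269). At E14.5 neither gene passed, with a log2 fold change of -1.11 for Hoxc10 (SE 0.69, adjusted p = 0.215) and -1.02 for Hoxc11 (SE 0.74, adjusted p = 0.288). Without bladder replicate 3 both were lower in bladder, by -2.19 (adjusted p = 0.00807) and -2.34 (adjusted p = 0.00417), as was Hoxc9 by -2.41 (adjusted p = 0.0212). Hoxc4 was 6.28-fold lower in bladder at E14.5, with 0.310, 0.114, 0.598 and 0.135 CPM in bladder and 0.880, 2.01, 2.89 and 1.14 CPM in urethra (adjusted p = 0.00899).

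The mesenchyme score of a library, the mean log2 CPM of the 15 mesenchyme genes, was 7.59 to 8.38 in bladder E18.5, 6.17 to 6.49 in urethra E18.5, 3.86 to 6.25 in bladder E14.5 and 5.64 to 7.09 in urethra E14.5. Of the 15 genes, 12 were higher and none lower in bladder at E18.5, and none was higher and 6 lower at E14.5. With the score as a covariate at E14.5, Hoxd1, Hoxd10 to Hoxd13, Hoxa2 and Hoxa13 remained lower in bladder, 7 of the 17 calls. Some calls were lost with little change in the estimate, as for Hoxd4 (log2 fold change -1.92 with the score and -1.85 without), Hoxa5 (-0.96 and -0.91), Hoxa3 (-0.65 and -0.55) and Hoxb3 (-0.68 and -0.79), at adjusted p from 0.0554 to 0.1. Hoxb8 (-1.28 and -2.11), Hoxc4 (-1.36 and -2.65) and Hoxd3 (-1.48 and -1.99) lost theirs with a smaller one. At E18.5 the scores of the tissues do not overlap, none of the 17 calls remained, and tissue and score cannot be told apart. The plot against the mesenchyme score shows 6 of the genes.

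Other cell types differed between the groups as well. At E18.5 all 10 smooth muscle genes, all 10 endothelial genes and 9 of 12 immune genes were higher in bladder, and 1 immune gene was lower. At E14.5 none of those 3 lists had a higher gene, and 1, 1 and 0 genes were lower. The duct list, 7 markers of the mesonephric and Mullerian ducts that join the urethra, had 1 gene higher (Gata2) and 6 lower in bladder at E14.5, and 0 higher and 4 lower in urethra at E18.5 than at E14.5. Pax2, a duct and kidney factor, ranged from 0 to 2.13 CPM in bladder E18.5, 0 to 0.531 CPM in urethra E18.5, 0 to 2.35 CPM in bladder E14.5 and 1.98 to 37.4 CPM in urethra E14.5. Summed with the more abundant Gata2, the duct list reached 160.6 to 253.1 CPM in bladder E18.5, 101.9 to 130.0 CPM in urethra E18.5, 321.5 to 472.1 CPM in bladder E14.5 and 118 to 414.4 CPM in urethra E14.5. At E18.5, 5 of the 7 duct genes were too low to be tested, and in the E18.5 libraries up to 4 of the 7 were at 0. Hoxd1 and Hoxd3 were likewise highest in urethra E14.5, and the part of duct RNA in their values was not tested.

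**Figure D4:**
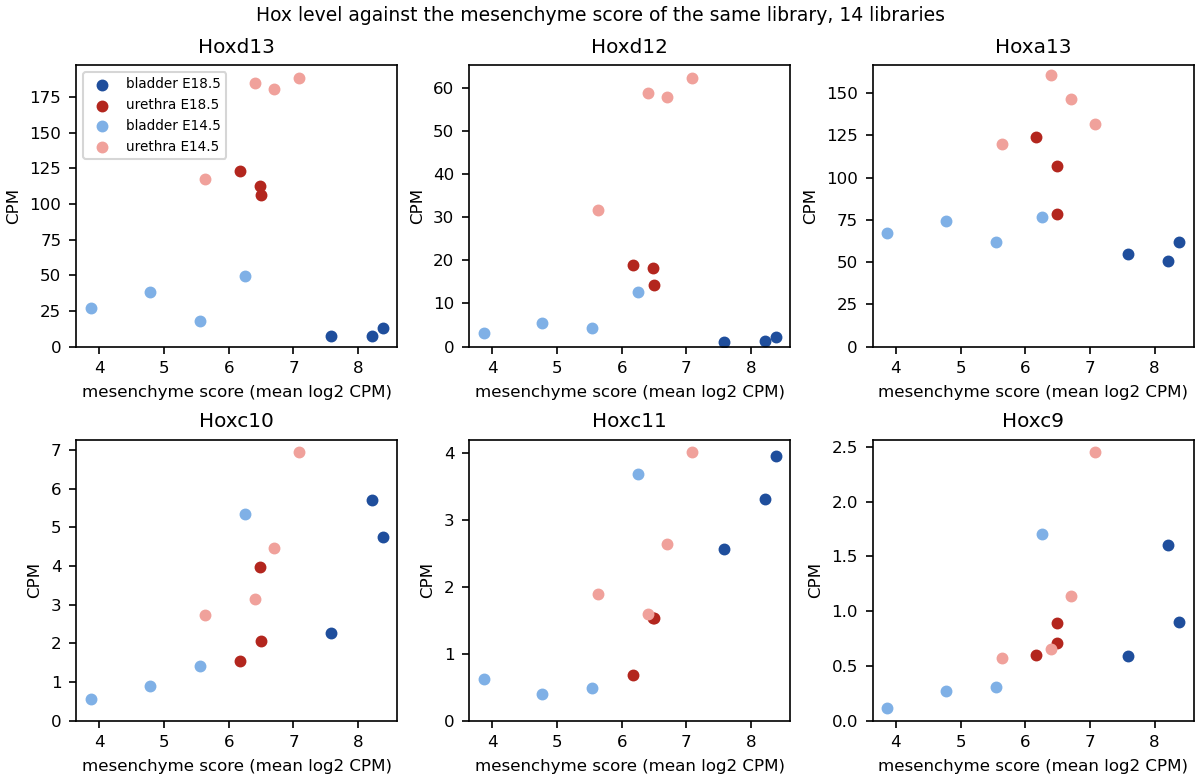
CPM of 6 Hox genes against the mesenchyme score (mean log2 CPM of 15 genes) in each of the 14 libraries, coloured by group. Hoxd13, Hoxd12 and Hoxa13 are lowest in bladder E18.5, whose scores are highest. Among the bladder E14.5 libraries, all 6 genes are highest in the library with the highest score.

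Between the stages, bladder had lower levels of Hoxb13, Hoxd12 and Hoxd13 at E18.5 than at E14.5, and more Hoxa11. In bladder, 2 Hox genes were higher and 12 lower at E18.5, or 37.8% of the 37 tested, where 40.3% of all 18286 genes passed (19.9% higher and 20.4% lower). The stages did not overlap for 2 higher and 13 lower, against 46.2% of all genes (22.4% higher and 23.9% lower). In urethra 3 were higher and 11 lower, where 33% of all genes passed (17.3% higher and 15.7% lower). The stages did not overlap there for 4 higher and 13 lower, against 38.5% of all genes (19.4% higher and 19% lower). The median log2 fold change of the 37 was -0.37 in bladder and -0.56 in urethra, against 0.00 over all genes in each. Pan-epithelial scaling moved the median of all genes by 0.54 in bladder and -0.76 in urethra, and the splits were then 3 higher and 5 lower in bladder and 0 higher and 25 lower in urethra. The labels name no batch. Each stage came as a table of its own, and a difference between the tables cannot be told apart from stage.

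Other cell types moved with stage in bladder. At E18.5, 12 of 15 mesenchyme genes, all 10 smooth muscle genes, all 10 endothelial genes and 10 of 12 immune genes were higher in bladder, none of these lists had a lower gene, and 3 of 7 pan-epithelial genes were lower. Smooth muscle genes summed to 5039 to 13210 CPM in bladder E18.5, against 263.7 to 620.4 CPM in bladder E14.5, and endothelial genes to 293.5 to 441.1 CPM, against 32.45 to 127.7 CPM. Immune genes summed to 185.3 to 266.6 CPM in bladder E18.5 and 12.18 to 61.78 CPM in bladder E14.5. In urethra at E18.5, 1 mesenchyme gene was higher and 2 lower, and 6 smooth muscle, 7 of 8 skeletal muscle and 5 of 7 pan-epithelial genes were higher. With the mesenchyme score as covariate, 4 of the 14 bladder calls remained (Hoxa11, Hoxd11, Hoxd12 and Hoxd13), while all 14 urethral calls did. The bladder scores of the stages do not overlap (7.59 to 8.38 at E18.5, 3.86 to 6.25 at E14.5). Stage and score therefore cannot be told apart in bladder, for the calls kept or for those lost. The part of the other lists in the Hox values was not tested.

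Wide changes in bladder were those of Hoxd1, Hoxb13, Hoxd12 and Hoxd13. Hoxb13 was 4.56-fold lower at E18.5 (log2 fold change -2.19, SE 0.29, adjusted p = 0.000107), Hoxd12 4.26-fold (-2.09, SE 0.47, adjusted p = 0.00351) and Hoxd13 3.56-fold (-1.83, SE 0.32, adjusted p = 0.00066), none with overlapping stages. Hoxb13 did not pass with the mesenchyme score as covariate (-1.64, adjusted p = 0.0866). Hoxd11 was 2.25-fold lower (adjusted p = 0.0268), not passing under pan-epithelial scaling (-0.64, adjusted p = 0.319), nor without bladder E18.5 replicate 2 or 3 or bladder E14.5 replicate 3 or 4 (highest adjusted p 0.0902). Hoxd10 and Hoxa13 did not pass (log2 fold changes -0.26 with adjusted p = 0.623 and -0.33 with adjusted p = 0.0927). Hoxa11 was 2.07-fold higher (1.05, SE 0.14, adjusted p = 9.33e-05), and Hoxa10 differed by 0.17 (adjusted p = 0.292), or by 0.72 under pan-epithelial scaling (adjusted p = 0.0107).

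Among the lower paralog numbers, Hoxd1 was 7.26-fold lower in bladder at E18.5 (adjusted p = 0.014), which did not pass without bladder E18.5 replicate 2 (adjusted p = 0.0516) and had a log2 fold change of -2.17 without bladder E14.5 replicate 4. Hoxb2 was 1.82-fold lower (12.1 to 14.7 CPM at E18.5, 22.9 to 28.0 CPM at E14.5, adjusted p = 0.000491), Hoxa3 1.77-fold (adjusted p = 0.00262), Hoxb3 1.48-fold (adjusted p = 0.00621) and Hoxd8 1.43-fold (adjusted p = 0.0117). Pan-epithelial scaling ended these 4 calls, with log2 fold changes of -0.32 for Hoxb2, -0.27 for Hoxa3, -0.010 for Hoxb3 and 0.041 for Hoxd8 (lowest adjusted p 0.32). With the mesenchyme score as covariate they did not pass either (-0.49, -0.60, -0.71 and -0.64 in the same order, lowest adjusted p 0.17). Hoxc4 was 3.18-fold higher (adjusted p = 0.0359), a call lost when any of 6 bladder libraries was left out (highest adjusted p 0.0955). Hoxa4 and Hoxb9 were lower, with adjusted p of 0.0466 and 0.0384, and lost the call on leaving out 11 and 7 of the 14 libraries in turn (highest adjusted p 0.161 and 0.11) and under pan-epithelial scaling (0.228 and 0.282). Without bladder E14.5 replicate 3, Hoxc6, Hoxc9, Hoxc10 and Hoxc11 passed as higher at E18.5 (log2 fold changes 2.195, 2.16, 2.13 and 2.67), beside 12 of 15 mesenchyme genes that were higher in bladder at E18.5.

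In urethra, of Hoxd10 to Hoxd13, only Hoxd12 passed between stages. Hoxd13 had 123, 106 and 113 CPM at E18.5 and 118, 185, 188 and 181 CPM at E14.5, which did not pass (log2 fold change -0.56, SE 0.30, adjusted p = 0.165). Hoxd12 was 3.07-fold lower at E18.5 (-1.62, SE 0.42, adjusted p = 0.011), lost without urethral E18.5 replicate 2 (adjusted p = 0.0533). Hoxb13 (-0.48, adjusted p = 0.188), Hoxd11 (-0.69, adjusted p = 0.158) and Hoxd10 (-0.43, adjusted p = 0.394) did not pass. Under pan-epithelial scaling Hoxd13 (-1.38), Hoxd11 (-1.51), Hoxd10 (-1.21) and Hoxb13 (-1.23) all passed as lower (highest adjusted p 0.0425). Hoxa13 was 1.36-fold lower (adjusted p = 0.036), lost without urethral E18.5 replicate 2 or 3 or urethral E14.5 replicate 2, 3 or 4 (highest adjusted p 0.208).

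Several genes of lower paralog number were lower at E18.5 in urethra. Hoxd1 was lower at E18.5 (log2 fold change -4.21, SE 0.59, adjusted p = 0.000394). Hoxd3 was 7.64-fold lower, with 0.214, 0.676 and 0.503 CPM at E18.5 and 1.72, 3.98, 4.78 and 4.10 CPM at E14.5 (adjusted p = 0.00145). Hoxb9, which patterns the thorax, was 7.21-fold lower (2.78, 2.00 and 4.28 CPM at E18.5, 7.39, 17.1, 49.0 and 13.8 CPM at E14.5, adjusted p = 0.00203) and had a log2 fold change of -2.04 without urethral E14.5 replicate 3. Hoxb8 was 3.70-fold lower (adjusted p = 0.0135), lost without urethral E18.5 replicate 2 (adjusted p = 0.0693) and at -1.22 without urethral E14.5 replicate 3.

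Hoxb2 (1.61-fold, adjusted p = 0.00368) and Hoxb3 (1.45-fold, adjusted p = 0.0106, lost without urethral E18.5 replicate 2 at 0.0621) were lower as in bladder. Hoxd8 was 1.39-fold lower (adjusted p = 0.0244), lost without urethral replicate 1 or 2 of E18.5 or 2 or 3 of E14.5 (highest adjusted p 0.153). The 3 higher genes all lay in HoxA. They were Hoxa7 (1.62-fold, adjusted p = 0.0092), Hoxa11 (1.54-fold, adjusted p = 0.00454) and Hoxa10 (1.33-fold, adjusted p = 0.0194, lost without replicate 2 of either urethral stage, highest adjusted p 0.0751), and pan-epithelial scaling turned Hoxa11 and Hoxa10 to -0.078 and -0.32 and left Hoxa7 at 0.0067. Hoxc5, with 13 counts at E18.5 and 103 at E14.5 in urethra, was lower with adjusted p = 0.0409, a call lost on leaving out 8 of the 14 libraries in turn (highest adjusted p 0.123).

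**Figure D5:**
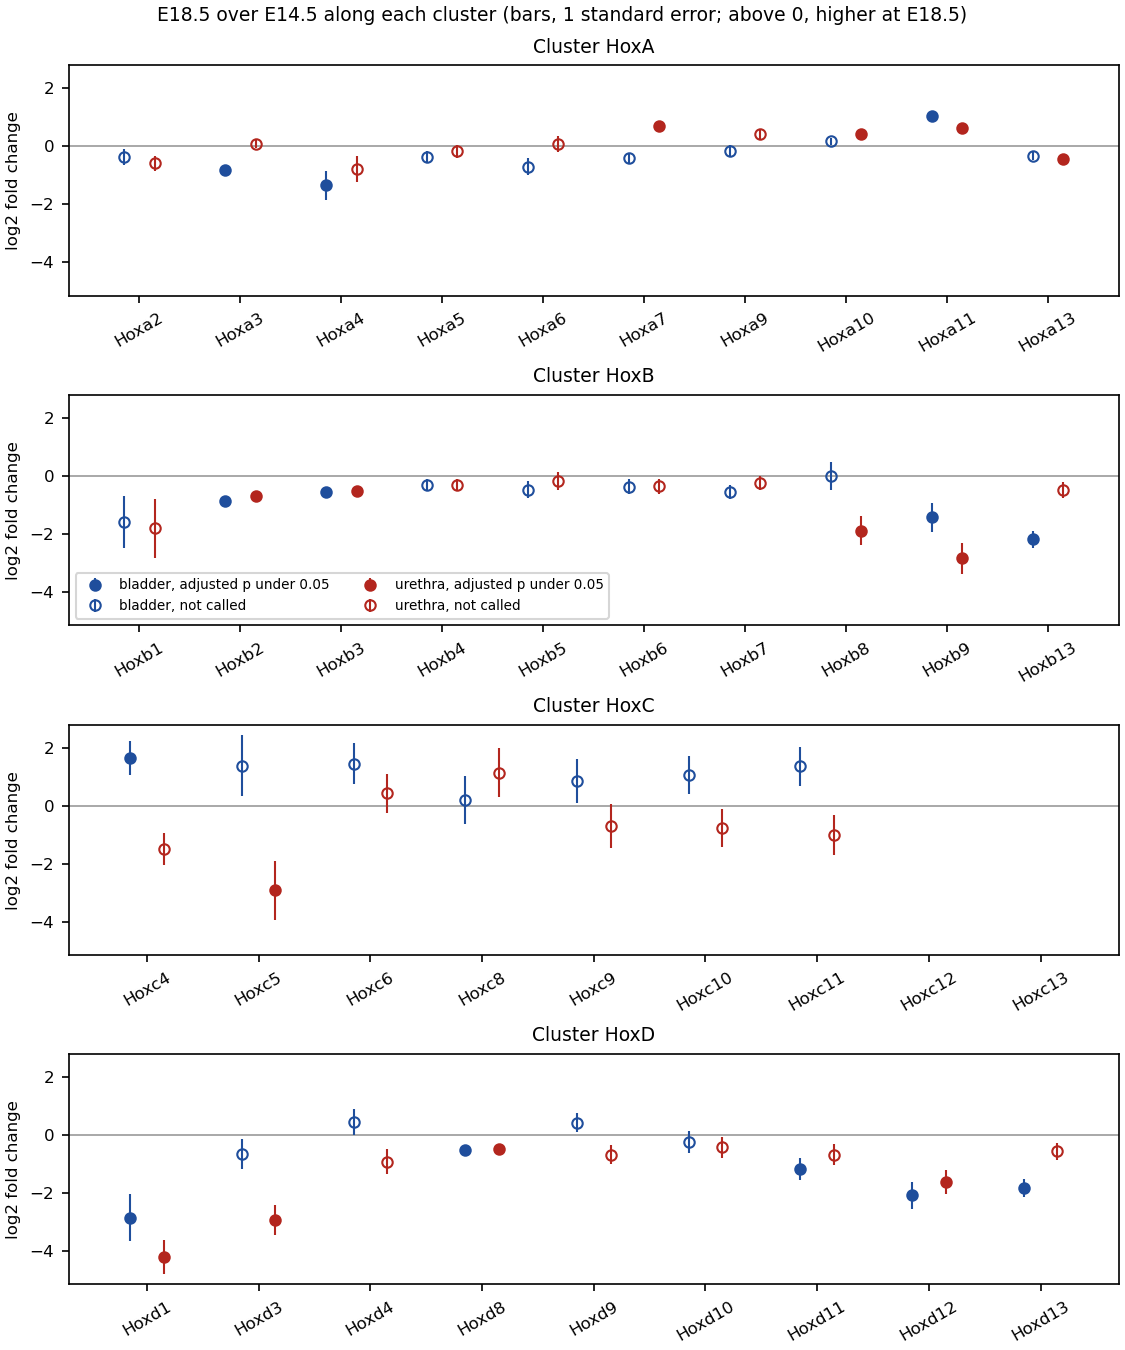
Log2 fold change of E18.5 over E14.5 for tested Hox genes, with 1 standard error, in bladder (blue) and urethra (red). Filled points passed the threshold. Hoxb13 and Hoxd13 passed in bladder and not in urethra (interactions of -1.71 and -1.27 on the log2 scale), and Hoxd3 passed in urethra and not in bladder (2.27).

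Whether a tissue difference itself changed between stages was tested as the interaction, the bladder minus urethra difference at E18.5 less that at E14.5. Of 37 Hox genes 3 were positive and 4 negative, 7 in all, where 22.9% of all genes passed (12.2% positive and 10.7% negative). Hoxb13 had an interaction of -1.71 on the log2 scale (SE 0.39, adjusted p = 0.00847), Hoxa7 of -1.11 (SE 0.25, adjusted p = 0.00791) and Hoxa3 of -0.92 (SE 0.25, adjusted p = 0.0185), the last pair turned to 0.12 and 0.36 by pan-epithelial scaling. Hoxc4 had 3.16 (SE 0.81, adjusted p = 0.0152). These 4 kept their call with each library left out in turn. Under pan-epithelial scaling Hoxc4 passed and Hoxb13 did not. None of the 7 passed with the mesenchyme score as covariate. Hoxd13 had -1.27 (SE 0.42, adjusted p = 0.0464), Hoxd3 2.27 (SE 0.71, adjusted p = 0.0354) and Hoxc5 4.31 (SE 1.45, adjusted p = 0.0477), which lost it on leaving out 12, 7 and 11 of the 14 libraries in turn (highest adjusted p 0.0987, 0.128 and 0.181).

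The interaction depended on the scaling, since pan-epithelial scaling moved the median of all genes by 1.29 and gave 21 positive and 0 negative Hox genes, with Hoxd13 at 0.12, Hoxa3 at 0.36 and Hoxa7 at 0.12. Hoxd12 (-0.47, adjusted p = 0.619), Hoxd11 (-0.48, adjusted p = 0.535), Hoxd10 (0.17, adjusted p = 0.851), Hoxa13 (0.11, adjusted p = 0.749) and Hoxd1 (1.35, adjusted p = 0.446) did not pass. Count ratios within libraries need no scaling. Hoxb13 to Hoxa13 averaged 0.212 in bladder E18.5 (0.160 to 0.261), 0.311 in urethra E18.5 (0.268 to 0.365), 0.753 in bladder E14.5 (0.469 to 0.933) and 0.313 in urethra E14.5 (0.204 to 0.388), so bladder was below urethra at E18.5 and above it at E14.5. Hoxa13 to Hoxa11 averaged 0.759, 2.42, 2.01 and 5.21 in the same groups.

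Hox proteins bind DNA with TALE homeodomain cofactors of the Pbx, Meis and Pknox families. Of 9 tested, 0 were higher and 4 lower in bladder at E18.5, and 0 were higher and 6 lower at E14.5, where 37.9% and 44% of all genes passed in either direction. Meis2 averaged 53.9 ± 20.2 CPM in bladder E18.5 (SD, n = 3), 401.7 ± 48.5 in urethra E18.5 (n = 3), 53.3 ± 28.3 in bladder E14.5 (n = 4) and 298.5 ± 98.9 in urethra E14.5 (n = 4). It was 7.78-fold lower in bladder at E18.5 (adjusted p = 0.000117) and 5.70-fold lower at E14.5 (adjusted p = 0.00171). Meis1 was 1.52-fold lower at E18.5 (adjusted p = 0.0108). Pbx3 was 1.52-fold lower at E18.5 (adjusted p = 0.03), lost without replicate 2 or 3 of bladder or 1 or 3 of urethra (highest adjusted p 0.107), and 3.04-fold lower at E14.5 (adjusted p = 0.000757). Pknox2 was 3.79-fold lower in bladder at E14.5 (adjusted p = 0.002) and 3.34-fold higher in bladder at E18.5 than at E14.5 (adjusted p = 0.000428).

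Beside the clusters, the Evx genes differed between the tissues. Evx2, an even-skipped homologue next to Hoxd13, averaged 0.140 ± 0.123 CPM in bladder E18.5 (10 counts in 3 libraries), 21.2 ± 4.8 in urethra E18.5, 1.88 ± 1.77 in bladder E14.5 and 20.9 ± 7.4 in urethra E14.5. Its fitted fold was 146-fold lower in bladder at E18.5 (adjusted p = 3.62e-05) and 11.5-fold lower at E14.5 (adjusted p = 0.00269). Evx1, next to Hoxa13, was 7.24-fold lower at E18.5 (adjusted p = 0.000728) and 8.35-fold lower at E14.5 (adjusted p = 0.0012). Of the flanking genes tested, 0 were higher and 4 lower of 9 at E18.5, and 3 higher and 4 lower of 11 at E14.5, again beside 37.9% and 44% of all genes.

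Noncoding genes within the clusters gave 0 higher and 3 lower of 8 tested at E18.5, and 0 higher and 5 lower of 11 at E14.5, shares near those of all genes (37.9% and 44%). Hottip, transcribed from beyond Hoxa13, averaged 2.21 ± 1.12 CPM in bladder E18.5, 14.2 ± 1.9 in urethra E18.5, 2.52 ± 0.51 in bladder E14.5 and 19.6 ± 6.8 in urethra E14.5. It was 6.70-fold lower in bladder at E18.5 (adjusted p = 0.000919) and 7.97-fold lower at E14.5 (adjusted p = 0.000382). Haglr, antisense near Hoxd1 and Hoxd3, was 28.4-fold lower at E18.5 (adjusted p = 0.000723), from 4 counts in the 3 bladder libraries, and 26.9-fold lower at E14.5 (adjusted p = 0.000438).

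Retinoic acid, the Cdx factors and Gdf11 act upstream of the Hox clusters. Of the genes for these and for retinoic acid synthesis, breakdown and reception, 0 were higher and 5 lower in bladder of 8 tested at E18.5, and 0 higher and 6 lower of 9 at E14.5 (37.9% and 44% of all genes in either direction). Rarb, a retinoic acid receptor that the acid itself induces, was 2.88-fold lower in bladder at E18.5 (adjusted p = 0.000417) and 3.84-fold lower at E14.5 (adjusted p = 0.000755). Rara was 2.23-fold lower at E18.5 (adjusted p = 0.000248) and 1.74-fold lower at E14.5 (adjusted p = 0.00082).

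Polycomb proteins keep Hox genes silent and Trithorax proteins keep them active. Of 18 Polycomb genes, 0 were higher and 8 lower in bladder at E18.5, and 3 higher and 7 lower at E14.5, beside the same 37.9% and 44% of all genes. Cbx2, a reader of the repressive mark, was 2.53-fold lower in bladder at E18.5 (adjusted p = 0.000506), and was also lower at E18.5 than at E14.5 in bladder (2.90-fold, adjusted p = 0.000366) and in urethra (2.36-fold, adjusted p = 0.0023). Of 10 Trithorax genes, 0 were higher and 6 lower in bladder at E18.5, and 1 higher and 4 lower at E14.5. Between stages, 0 Trithorax genes were higher and 10 lower at E18.5 in bladder, and 0 higher and 4 lower in urethra, beside 40.3% and 33% of all genes. Their medians of log2 fold change ran from -0.42 to -0.09, against -0.04 to 0.00 over all genes tested.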

How the data were processed

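RNA-seq was made from 60 ng of total RNA per library with poly(A) selection and a directional kit, read as 100 bp pairs, per the labels' protocols. Tools named by the submitters' processing notes were HISAT2 2.2.1, SAMtools 1.9 and bcl2fastq, with GRCm38 as genome build. For each stage the authors deposited a table of raw counts by gene symbol beside exon lengths, per the file headers. How reads were counted, with which strand rule and which gene annotation, is not given in the sources read here. Of counts from 1 to 12, 65.5 to 70.3% per library were even, as when both mates of a pair are counted, so counting precision is lower than the counts alone would give. Gene positions were those of the tables, and all 39 Hox genes had the same start, end and strand in GENCODE M21. Promoter sequences were RefSeq's (GRCm38.p6). The series' design text counts 4 litters for E14.5 and 3 for E18.5, while the extraction notes count 3 for each kind of sample.

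CPM used effective library sizes (trimmed mean of M values) over the 14 libraries, and log2 CPM for the mesenchyme score a prior count of 2. Tests used edgeR 4.0.16 (filterByExpr, quasi-likelihood F test) in R 4.3.3 with adjusted p under 0.05. Tissue tests used the libraries of their stage, and stage tests and the interaction all 14 in 4 groups. SE is the log2 fold change over the square root of F. The tests were tried on simulated data with known changes first. Groups came from the labels, and p-values measure the spread between litter pools. Alternatives were DESeq2 size factors, pan-epithelial scaling, no filter, DESeq2 1.42.0, the mesenchyme score as covariate, each library left out, a block for replicate number, and tissue tests fitted on all 14 libraries. The same alternatives were added for other named genes after seeing the data.

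The Hox genes and all gene lists were chosen with earlier results of these data known. Full values were given for groups 10 to 13 with at least 1 CPM in a group, and for up to 6 members of groups 1 to 9 per comparison with the smallest adjusted p and the highest member of each cluster. Other lists gave up to 3 members per comparison by adjusted p, or any where 5 or fewer were counted. A few genes that these rules name are not reported here, though counts over all genes of a list include them.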

Additional observations from a re-analysis of the deposited data

Results flagged for a closer look

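Among the Hox genes examined in each of the 2 groups of 4 libraries, 11 of 68 gene and group pairs had a library far from the other 3, by Dixon's gap test. Chance gives about 1 in 20 for independent values with a normal spread. These genes share the same libraries and some have few counts, so that rate cannot show an excess here. In bladder E14.5, replicate 1 stood apart for Hoxb13 (29.1 CPM, low) and Hoxd9 (11.8 CPM, high). Replicate 2 stood apart for Hoxa2 (2.16 CPM, high), replicate 3 for Hoxc11 (3.68 CPM, high) and Hoxc9 (1.70 CPM, high), and replicate 4 for Hoxd3 (0.437 CPM, low). In urethra E14.5, replicate 1 was low for Hoxb3 (27.7 CPM), Hoxd12 (31.8 CPM) and Hoxd13 (118 CPM), and replicate 3 was high for Hoxb7 (22.4 CPM) and Hoxd9 (17.9 CPM). Replicate 1 also had the lowest mesenchyme score of its group (5.64), and replicate 3 the highest (7.09), in urethra E14.5. In replicate 1 the urothelial list summed to 2708 CPM (740.2 to 1145 in the other urethral E14.5 libraries). Its pan-epithelial list summed to 3662 CPM (1657 to 2219 in the others). The part of the score and of these lists in the flagged values was not tested.

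The tissue difference at E18.5 differed from that at E14.5, by the test of the difference itself, for 7 genes. The log2 difference was -0.92 for Hoxa3, -1.11 for Hoxa7, -1.71 for Hoxb13, 3.16 for Hoxc4, 4.31 for Hoxc5, 2.27 for Hoxd3 and -1.27 for Hoxd13. Pan-epithelial scaling turned Hoxa3 (0.36), Hoxa7 (0.12) and Hoxd13 (0.12), and Hoxb13 did not pass under it. With the mesenchyme score as covariate none of the 7 passed.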

How the results depend on the processing

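Of 3931 results for single genes under all alternatives, 3550 stayed on their side of the threshold. A further 83 passed only under the alternative and 268 no longer passed. Another 30 turned direction and passed in the main fit or under the alternative. A turn in a gene that passed in neither was left among the 3550. Of the 3550, 2356 came from leaving out a library. Pan-epithelial scaling, which moves all genes together, gave 0 higher and 27 lower Hox genes in bladder at E14.5, and 5 and 7 at E18.5. In the bladder stage test it gave 8 calls, 5 of them lower and the rest higher. The urethral one had 0 higher and 25 lower, and the interaction 21 positive and 0 negative. Turns of direction below are given only for genes that passed in the main fit or under the alternative. Under pan-epithelial scaling the log2 fold change turned at E14.5 for Hoxd8 (-0.56), Hoxa7 (-0.16), Hoxa9 (-0.73), Hoxa10 (-0.78), Hoxa11 (-0.58), Hoxb7 (-0.97) and Hoxb2 (-0.49). It turned in the bladder stage test for Hoxd8 (0.041), Bmi1 (0.091) and Rara (0.19), and in the urethral one for Hoxa10 (-0.32) and Hoxa11 (-0.078). In the interaction it turned for Hoxd13 (0.12), Hoxd8 (1.29), Hoxa3 (0.36), Hoxa5 (1.11), Hoxa7 (0.12), Hoxa9 (0.66), Hoxa10 (1.03), Hoxb6 (1.43), Hoxb4 (1.37), Hoxb3 (1.33), Hoxb2 (1.10) and Jarid2 (0.48). The mesenchyme covariate gave 0 higher and 7 lower Hox genes at E14.5, none in either direction (0 and 0) at E18.5, 1 higher and 5 lower in the bladder stage test (4 of the 6 among the 14 called without it), 5 higher and 12 lower in the urethral one, and 0 and 0 in the interaction. Under it the value turned for Hoxa9 (0.21) and Hoxc11 (-0.52) at E18.5, for Hoxc9 (-3.07), Hoxc8 (-4.37) and Hoxc4 (-1.09) in the bladder stage test, and for Hoxc5 (-0.24) in the interaction. DESeq2 gave 5 positive interactions, and the fit of all 14 libraries 5 higher at E14.5 and 1 higher at E18.5. The cause was not tested.

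Leaving out each library in turn gave 1 to 4 higher and 11 to 14 lower at E18.5, 1 to 4 higher and 13 to 19 lower at E14.5, 1 to 6 higher and 8 to 12 lower in the bladder stage test, 2 to 4 higher and 5 to 12 lower in the urethral one, and 1 to 6 positive and 3 to 4 negative interactions. Of the calls, 12 of 17 at E18.5, 14 of 17 at E14.5, 9 of 14 in bladder, 7 of 14 in urethra and 4 of 7 interactions held throughout. Each litter gave both tissues, but the labels tie no replicate number to a litter, and the numbers were not taken to pair the samples, since not every same-number correlation of deviations was above 0.1. These were 0.15, 0.131, 0.391 and -0.104 at E14.5, and 0.138, -0.146 and -0.189 for the E18.5 libraries. The running numbers in the column names put bladder and urethra of the same replicate number side by side. So few correlations cannot decide whether a replicate number marks a litter. As a block, the number gave 1 higher and 11 lower at E18.5, 3 higher and 17 lower at E14.5, and 2 positive and 4 negative interactions. The block shared 12 of 17 calls at E18.5 and 16 of 17 at E14.5, where Hoxa11, Hoxc9, Hoxc10 and Hoxc11 passed with it and not in the same fit without it. Depth limits HoxC and Hoxd1 in bladder, which rest on few counts.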
